A study of Mus musculus with 6 samples.

Results

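Cardiac and pulmonary vein muscle genes were followed in whole mouse lung as a set of 36 genes, chosen by gene symbol from the 23183 genes in the tables. All 36 symbols were present. The study sequenced lung RNA of mice on the C57BL/6 background that had received saline or lipopolysaccharide (LPS), a cell wall component of Gram-negative bacteria, by instillation into the trachea, with 3 libraries per group. The saline libraries are labelled wild type in both title and genotype field. The LPS libraries are titled wild type, but their genotype field reads LCN2-/- for LPS 1 and LPS 2 and LCN4-/- for LPS 3, so that treatment and any difference of genotype cannot be told apart. The sources used here do not give age, LPS dose or time after instillation. Nothing states that each library is a separate animal, and p-values therefore cover the spread between these libraries only, which may be technical.

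Heart muscle cells contract when calcium released from the sarcoplasmic reticulum binds troponin on the thin filament and lets myosin of the thick filament pull on actin. In the mouse, the pulmonary veins carry a sleeve of such heart muscle, continuous with the left atrium, far into the lung, so that lung RNA normally holds transcripts of atrial type. Atrial muscle uses the myosin light chains encoded by Myl4 and Myl7, and ventricular muscle those encoded by Myl2 and Myl3. A lung piece can also carry a fragment of heart, and these sources share most of their genes.

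Values are the deposited log2(expression value + 1). The low values gathered in steps once multiplied by transcript length (16 to 28 genes in the fullest bin, against 10 to 15 without length), so that levels are compared between genes as values per length. Values before the log are called plain values below. The table of LPS 3 ends early and holds 27 of the 36 genes. Lcn2 was high in every LPS library (13.29 to 13.82, against 8.20 to 11.28 in saline), which goes against a knockout label for LPS 1 and LPS 2. Lcn4 was at 0.14 to 0.57 in LPS and at 0.26 to 0.70 in saline. The tables of the groups also differed in their zeros. The 3 saline tables were at exactly 0 for the same 3869 genes, with 0 genes at 0 in only some of them. In LPS there were 5117 to 6223 zeros a table, and 1673 genes with a value in LPS 3 were at 0 in only some LPS libraries. The part of this difference in the results was not tested.

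Promoter sequences of the set are shown as a description, and their part in the levels was not tested. RefSeq windows (GRCm38.p6) of 300 bases, 250 before to 50 after a transcription start, were found for 31 of the 36 genes (38 windows). The serum response element known as the CArG box, bound by SRF, was present in 13.2% of these windows against 1.63% of all 32851 windows. That share is 5 windows of 4 genes, since overlapping windows of Ldb3 hold the same site. The MEF2 motif was present in 10.5% against 3.19%, and CATTCC, the M-CAT element bound by TEAD factors, in 23.7% against 14.7%. For AGATAA, bound by GATA factors, the shares were 13.2% and 11.2%, and for TNAAGTG, bound by NKX2-5, 7.89% and 11.5%, searched on both strands as were the others. These shares are descriptions of letters in a window and were not tested. The 250 bases upstream of the start are shown for an atrial hormone gene, an atrial light chain gene and 2 thin filament genes, with matches to any of these 5 motifs in capitals. No match overlaps another in the windows shown.

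Nppa, chr4:148000472-148000721, plus strand, with TNAAGTG in capitals: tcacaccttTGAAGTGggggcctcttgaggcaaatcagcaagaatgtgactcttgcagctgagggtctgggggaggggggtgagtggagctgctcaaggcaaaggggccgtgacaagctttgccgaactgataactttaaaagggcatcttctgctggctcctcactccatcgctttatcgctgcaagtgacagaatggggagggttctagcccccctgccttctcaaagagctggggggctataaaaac
Myl7, chr11:5898783-5899032, minus strand, with CATTCC and then a CArG box in capitals: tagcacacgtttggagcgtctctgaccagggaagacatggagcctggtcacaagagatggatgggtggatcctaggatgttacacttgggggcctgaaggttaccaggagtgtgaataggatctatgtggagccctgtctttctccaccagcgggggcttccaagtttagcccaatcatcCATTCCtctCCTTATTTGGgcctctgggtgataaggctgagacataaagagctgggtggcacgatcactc
Actc1, chr2:114052876-114053125, minus strand, with a CArG box in capitals: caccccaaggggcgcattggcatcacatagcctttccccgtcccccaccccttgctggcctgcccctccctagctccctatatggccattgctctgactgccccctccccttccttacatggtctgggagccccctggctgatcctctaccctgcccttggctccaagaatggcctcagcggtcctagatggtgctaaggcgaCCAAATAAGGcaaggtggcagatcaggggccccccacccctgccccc
Tnnt2, chr1:135836084-135836333, plus strand, with AGATAA on the other strand and then CATTCC in capitals: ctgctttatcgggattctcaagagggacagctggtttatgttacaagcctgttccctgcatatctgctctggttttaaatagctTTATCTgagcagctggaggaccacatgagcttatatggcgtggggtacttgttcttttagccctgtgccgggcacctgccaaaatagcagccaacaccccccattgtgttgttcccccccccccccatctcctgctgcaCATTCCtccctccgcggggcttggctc

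The heart muscle genes were lower in the libraries labelled LPS, and they also differed widely among the saline libraries. In 35 of 36 genes the LPS mean was below the saline mean. In 32 of the 36 every LPS value lay below every saline value, as in 34.2% of all genes with a value above 0 and 32.98% of the 18938 that reached a plain value of 0.01, as all 36 did. The 4 genes with overlapping groups were Myl2, Xirp1, Nppb and Hspb7. For the 9 genes with no value in LPS 3, overlap was judged on LPS 1 and LPS 2 only. Saline 1 was the highest of all libraries for 35 genes, and for 33 the saline values stood in the same order, with saline 1 above saline 2 above saline 3. Of the 26 genes that passed a filter on low values, 25 had that order, against 13.3% of all genes tested. Among the 27 genes with 6 values, LPS 3 was the highest LPS library for 20 and LPS 1 the lowest for 20. In whole tissue, fewer cells of a type and less RNA per cell cannot be told apart.

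**Figure D1:**
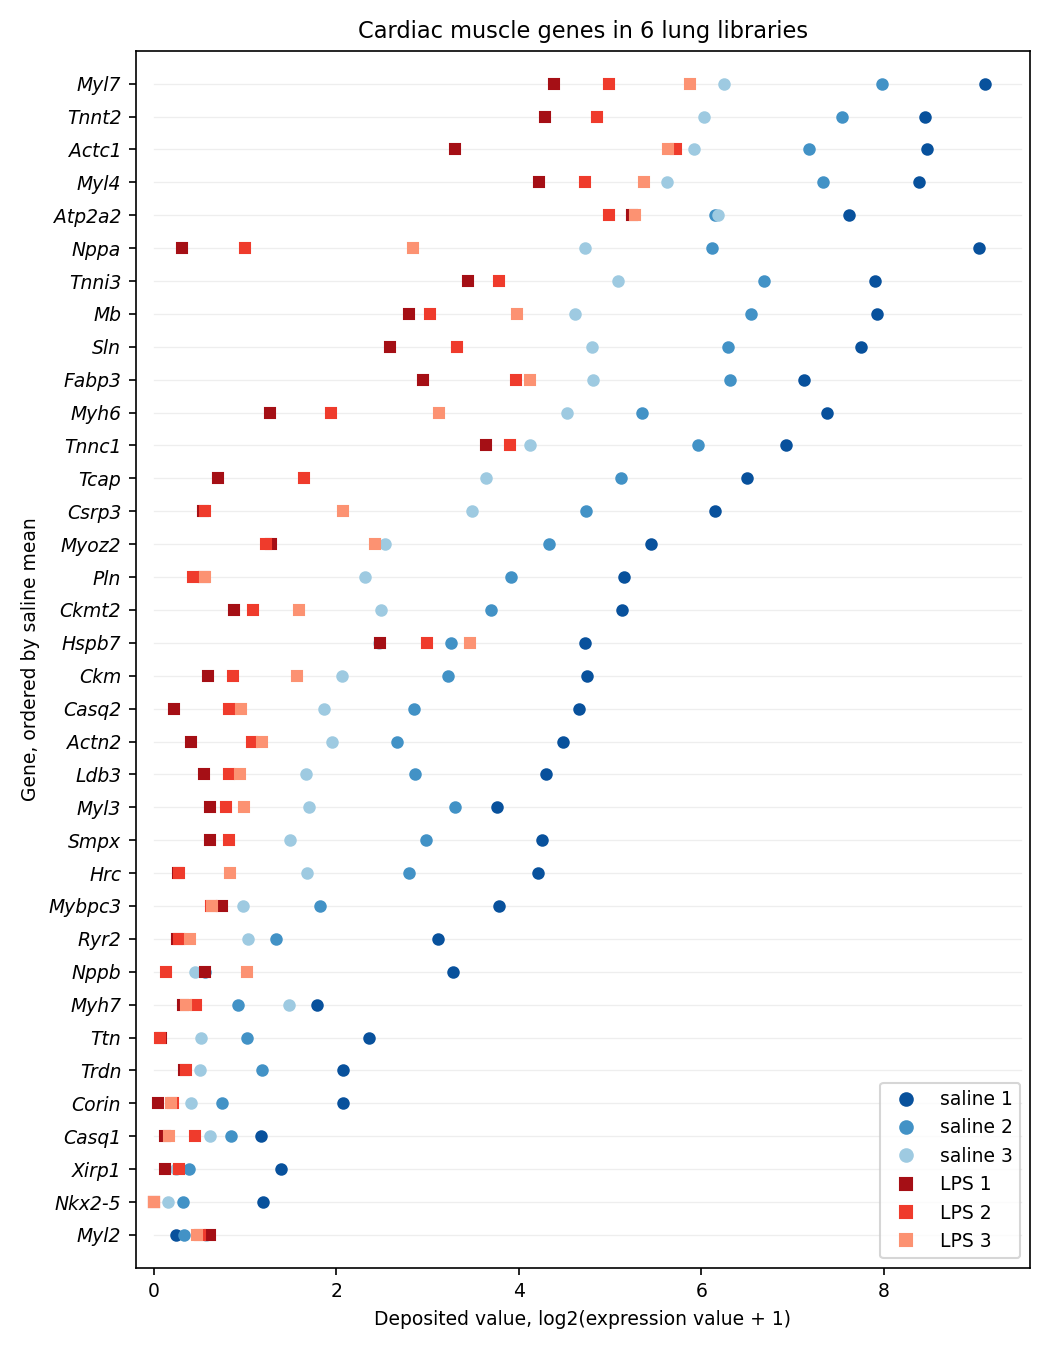
Deposited log2(expression value + 1) (x axis) of the 36 heart muscle genes (y axis, ordered by saline mean) in each library; each point is 1 library, circles saline and squares LPS, with no LPS 3 point for 9 genes. Saline 1 is the rightmost point in 35 genes, and the groups overlap in Myl2, Xirp1, Nppb and Hspb7.

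Of the 36 genes, 26 passed the filter on low values (a plain value of 1 or above in at least 3 libraries) and were tested with limma over 13116 genes. Of these, 25 fell, 0 rose (all 26 differences were negative), and Hspb7 did not pass, where 24.3% of all genes tested were called lower in LPS and 50.1% were called in either direction. No LPS library reached a plain value of 1 for 7 of the 26, which passed the filter through saline alone, so that the count describes these genes and supports nothing further. The median difference of the 26 was -2.45, against 0.02 over all genes tested. In the fit, each gene's variance is drawn toward that of all genes tested. The 26 genes varied more than most, so their SEs are smaller than their own spread alone would give. The groups did not overlap in 25 of the 26, against 30.7% of all genes tested with every LPS value below every saline value. Genes with no value in LPS 3 were again judged on LPS 1 and LPS 2. With robust variance estimation 10 of 26 fell, where 24.2% of all genes were called lower. With no filter on low values 15 of 36 fell, where 17.5% of all genes were called lower. When libraries were scaled to equal sums, the call split over all genes moved from 3377 higher and 3188 lower to 798 higher and 8343 lower. The median of all genes then shifted to -0.68 and that of the 26 genes to -3.11, with 25 of them still called lower.

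The genes of the thick filament, the myosin motor and its regulators, covered nearly the whole range of levels. Myl7 (ENSMUSG00000020469, chromosome 11, 5896637 to 5898782, mm10), the atrial regulatory light chain, was 9.11, 7.98 and 6.25 in saline 1 to 3 and 4.38, 4.98 and 5.88 in LPS 1 to 3. It had the highest saline mean of the 36 genes, and LPS 3 came close to saline 3. Myl7 fell by 2.70 (SE 0.63; adjusted p = 0.00673 by limma, with adjustment by Benjamini-Hochberg). Myl4, the atrial essential light chain (chromosome 11, 104550663 to 104595753), was 8.39, 7.33 and 5.62 in saline and 4.22, 4.73 and 5.38 in LPS, and fell by 2.34 (SE 0.58; limma adjusted p = 0.00927). The calls for Myl7 and Myl4, the latter also without the filter, ended with robust variance estimation, at adjusted p = 0.0523 and 0.0619, where all alternatives together gave 0.00093 to 0.0523 for Myl7 and 0.00111 to 0.0619 for Myl4.

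Myh6, the fast myosin heavy chain of atria and of the adult mouse ventricle (chromosome 14, 54941921 to 54966927), was 7.38, 5.35 and 4.53 in saline and 1.27, 1.94 and 3.12 in LPS. The lowest saline value stood 1.41 above the highest LPS value. Myh6 fell by 3.64 (SE 0.67; limma adjusted p = 0.00215), and kept its call under all 16 alternatives. Its neighbour Myh7, the slow heavy chain, lies on the same strand with 3756 bases between the genes, and reads of these near-identical genes can be split uncertainly. Myh7 was 0.92 to 1.79 in saline and 0.32 to 0.46 in LPS and was too low to be tested.

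The ventricular light chains were far below the atrial ones in every library. Myl3 was 3.76, 3.30 and 1.70 in saline and 0.62, 0.79 and 0.99 in LPS, and fell by 2.12 (SE 0.43; limma adjusted p = 0.00356). Myl2, the light chain that marks the ventricle, was 0.24, 0.33 and 0.57 in saline and 0.61, 0.50 and 0.48 in LPS, and was the only one of the 36 genes whose mean was higher in LPS. It was not tested, since no plain value reached 1. The plain values of Myl2 and Myl3 together came to 1.44% to 2.23% of those of Myl4 and Myl7 in saline and 1.40% to 2.83% in LPS, so that Myl4 and Myl7 made up nearly all of the signal of these 4 genes in both groups. Mybpc3, the myosin-binding protein that tunes the cross-bridges, was 3.79, 1.82 and 0.97 in saline and 0.63 to 0.74 in LPS, and was not tested.

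All 4 thin filament genes were tested and fell. Tnnt2, the troponin subunit that anchors the complex to tropomyosin (chromosome 1, 135836354 to 135852260), was 8.45, 7.54 and 6.02 in saline and 4.29 and 4.86 in LPS 1 and 2, and fell by 2.77 (SE 0.58; limma adjusted p = 0.00527). Tnni3, the inhibitory subunit, was 7.90, 6.69 and 5.08 in saline and 3.44 and 3.78 in LPS, and fell by 2.95 (SE 0.65; limma adjusted p = 0.00648). Neither gene has a value in LPS 3, the LPS library in which most of the other genes were highest, so their fits rest on 5 libraries. Both calls ended with no filter and with robust variance estimation.

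Tnnc1, the calcium sensor of the complex, also used in slow skeletal muscle, was 6.93, 5.96 and 4.12 in saline and 3.64 and 3.91 in LPS, with no value in LPS 3. The gap between the groups was 0.21, and Tnnc1 fell by 1.90 (SE 0.66; limma adjusted p = 0.0403). It lost its call under 9 of 16 alternatives, which gave adjusted p-values of 0.00142 to 0.187. Actc1, cardiac alpha-actin (chromosome 2, 114047282 to 114053548), was 8.47, 7.18 and 5.92 in saline and 3.30, 5.72 and 5.64 in LPS. LPS 1 stood more than 2 below the other LPS libraries, which lay just under saline 3. Actc1 fell by 2.30 (SE 0.72; limma adjusted p = 0.0243) and lost its call under 8 of 16 alternatives, which gave adjusted p-values of 0.00363 to 0.122. Without saline 1 the differences were -1.27 for Tnnc1 and -1.66 for Actc1, and neither passed. Both calls were also lost without saline 2 or without LPS 1, and that of Tnnc1 without LPS 2.

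Of the 8 genes of the Z-disc, titin and the stretch response, 6 were tested and fell. Tcap, telethonin, which caps titin at the Z-disc, was 6.50, 5.12 and 3.64 in saline and 0.71 and 1.64 in LPS, with no value in LPS 3. Its gap between the groups of 1.999 rests on 2 LPS libraries, and the widest gap among genes with 6 values was that of Nppa, 1.88. Tcap fell by 3.91 (SE 0.68; limma adjusted p = 0.00230). Csrp3, a LIM protein of the same site, was 6.15, 4.74 and 3.48 in saline and 0.54, 0.56 and 2.07 in LPS, and fell by 3.73 (SE 0.61; limma adjusted p = 0.00131). Both calls held under all 16 alternatives.

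Myoz2, a calcineurin-binding Z-disc protein, was 5.45, 4.33 and 2.53 in saline and 1.28, 1.23 and 2.42 in LPS. Its gap of 0.11 was the narrowest among the genes whose groups did not overlap. Myoz2 fell by 2.46 (SE 0.62; limma adjusted p = 0.00980), and was no longer called with no filter and with robust variance estimation (adjusted p of 0.00127 to 0.0716 over all alternatives). Ldb3, a PDZ-LIM protein of the Z-disc, fell by 2.17 and Actn2, which links actin filaments there, had a difference of -2.15 (limma adjusted p = 0.00752 and 0.00897). Both lost their calls under those same settings, and Ldb3 also without saline 2 and LPS 3 together. Smpx, a small stretch-associated muscle protein, fell by 2.19 (limma adjusted p = 0.0202) and lost its call under 8 of 16 alternatives, those without saline 2, LPS 1 or LPS 2 among them. Ttn, the giant spring of the sarcomere, was 2.36, 1.02 and 0.52 in saline and 0.08 and 0.06 in LPS, and Xirp1, an actin-binding repeat protein, 0.24 to 1.39 and 0.12 to 0.27. Both were too low to be tested.

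Of the 8 genes of calcium storage, release and uptake, 6 were tested and fell. Pln, phospholamban, which slows the calcium pump (chromosome 10, 53337667 to 53345987), was 5.16, 3.91 and 2.32 in saline and 0.55, 0.43 and 0.56 in LPS. The LPS libraries lay close together and 1.75 below saline 3. Pln fell by 3.28 (SE 0.55; limma adjusted p = 0.00143) and kept its call under all 16 alternatives. Sln, sarcolipin, the pump inhibitor of atrial muscle (chromosome 9, 53850164 to 53854560), was 7.75, 6.29 and 4.80 in saline and 2.59 and 3.32 in LPS, with no value in LPS 3. It fell by 3.33 (SE 0.69; limma adjusted p = 0.00495), and was no longer called with no filter and with robust variance estimation.

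Atp2a2, the calcium pump SERCA2, is used in many cell types besides muscle. It was 7.61, 6.15 and 6.18 in saline and 5.23, 4.99 and 5.27 in LPS, and fell by 1.48 (SE 0.35; limma adjusted p = 0.00708), a result kept under all 16 alternatives. Saline 2 and saline 3 were alike for Atp2a2, unlike for most of the other tested genes, and its LPS values stood at 4.99 or above. Casq2, the calcium-storing calsequestrin of the heart, was 4.66, 2.85 and 1.86 in saline and 0.22, 0.82 and 0.96 in LPS, and fell by 2.46 (SE 0.57; limma adjusted p = 0.00651). Casq2 was no longer called with robust variance estimation. Hrc, a calcium-binding protein of the same store, fell by 2.44 (limma adjusted p = 0.00408), and Ryr2, the release channel, fell by 1.52 (limma adjusted p = 0.0188). The Ryr2 call ended under 5 of 15 alternatives. Trdn, which ties calsequestrin to the channel, was 0.50 to 2.07 in saline and 0.33 to 0.35 in LPS 1 and 2. Casq1, the calsequestrin of fast skeletal muscle, was 0.61 to 1.17 in saline and 0.13 to 0.45 in LPS, and neither was tested.

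The largest difference was in an atrial hormone. Nppa, which encodes atrial natriuretic peptide (ENSMUSG00000041616, chromosome 4, 148000722 to 148002079), was 9.04, 6.12 and 4.72 in saline and 0.31, 0.99 and 2.84 in LPS. In saline 1 it stood among the highest of the 36 genes, and in LPS 1 it was near 0. Nppa fell by 5.25 (SE 0.97; limma adjusted p = 0.00232), kept under all 16 alternatives, with differences of -6.23 to -4.04. Its neighbour Nppb, the B-type peptide gene 13516 bases away, was 3.28, 0.56 and 0.45 in saline and 0.56, 0.13 and 1.02 in LPS. LPS 3 exceeded saline 2 and saline 3 for Nppb, so the groups overlapped, and the gene was not tested. Corin, the protease that activates the pro-peptide, was 2.07, 0.74 and 0.40 in saline and 0.05 to 0.21 in LPS, and was not tested.

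All 4 genes of energy supply and oxygen binding fell. Mb, myoglobin, was 7.93, 6.54 and 4.62 in saline and 2.79, 3.02 and 3.98 in LPS, and fell by 3.10 (SE 0.68; limma adjusted p = 0.00518). Mb was no longer called with robust variance estimation. Ckmt2, the mitochondrial creatine kinase of striated muscle, was 5.13, 3.69 and 2.49 in saline and 0.88, 1.08 and 1.59 in LPS, and fell by 2.59 (SE 0.53; limma adjusted p = 0.00373). Ckm, the cytosolic muscle form, fell by 2.34 (limma adjusted p = 0.00735) but not with no filter or with robust variance estimation. Fabp3, the fatty acid carrier of heart and brown fat, fell by 2.41 (limma adjusted p = 0.00468).

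Hspb7 and Nkx2-5 complete the set. Hspb7, a small heat shock protein of heart muscle, was 4.72, 3.25 and 2.46 in saline and 2.47, 2.996 and 3.47 in LPS. LPS 3 exceeded saline 2, and the difference was -0.50 (SE 0.49; limma adjusted p = 0.410), turning to 0.12 without saline 1. Nkx2-5, the transcription factor that specifies heart muscle, was 1.20, 0.31 and 0.15 in saline and is listed at 0 in all 3 LPS libraries, and it was not tested.

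The spread within saline was the second feature of these genes. The median SD of the 26 tested genes was 1.37 in saline and 0.46 in LPS, against 0.21 and 0.15 over all genes tested. Each of the 26 had a saline SD above that of at least 98.7% of the genes tested (Atp2a2 the lowest of them), and 25 were more variable in saline than in LPS, as were 63.4% of all genes. These SDs are on the log2(value + 1) scale, where the 1 added narrows the spread of low values, as many LPS values were. Before the log, Nppa was 0.24, 0.99 and 6.14 in LPS 1 to 3. For genes with no value in LPS 3, the LPS SD rests on LPS 1 and LPS 2 only. The range within saline exceeded the difference between the group means for 15 of the 26, against 40.4% of all genes tested. For the other 11 the difference was the larger, with Nppa (5.25 against a saline range of 4.32), Tcap (3.91 against 2.85) and Csrp3 (3.73 against 2.67) among them. Without saline 1, 23 of the 26 fell, where 19.5% of all genes were called lower, and their median difference moved from -2.45 to -1.78.

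**Figure D2:**
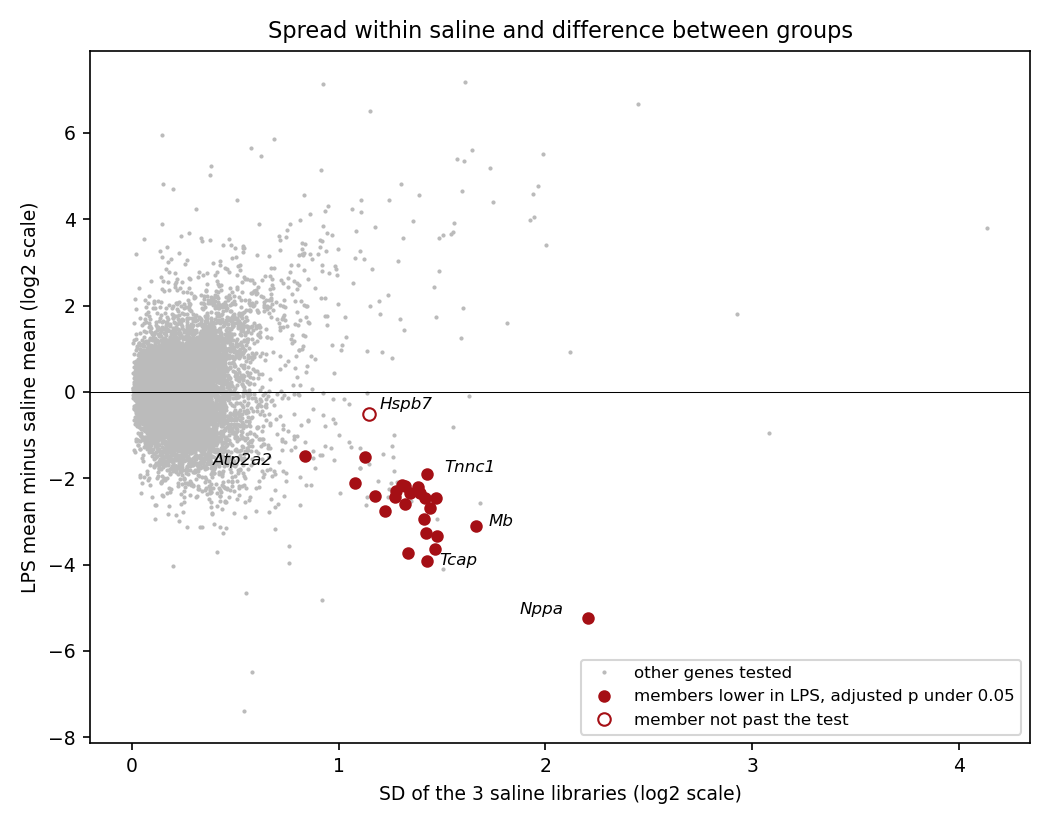
SD of the 3 saline libraries (x axis) against LPS mean minus saline mean (y axis), both on the log2(value + 1) scale; grey points are all genes tested, filled red points the 25 heart muscle genes past the test and the open point Hspb7. The heart muscle genes combine a saline SD of 0.84 (Atp2a2) to 2.21 (Nppa) with differences down to -5.25, where the median saline SD of all genes was 0.21.

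The saline libraries differed by a factor that was similar for many of the genes. Plain values in saline 1 were a median of 7.42 times those in saline 3 over the 26 tested genes, from 2.73 times for Atp2a2 to 20.7 times for Nppa. On the log2 scale the median of saline 1 minus saline 3 was 2.72 for these genes and 0.01 over all genes tested. A log2 difference of 2 or more in that direction was found in 44 of 13116 genes (0.335%), of which 25 were in the set, 10 in the list of other cardiac muscle genes and 1 in the skeletal muscle list. Among the LPS libraries, LPS 3 stood above LPS 1 by a median of 0.99 over the 20 tested genes with a value in both, against 0.01 over all genes tested. Sequencing depth may differ between the libraries, but which is the deepest is not known. The fullest low-value step of saline 1, of 28 among 1011 genes, was at a plain value times transcript length in kilobases of 0.0404, against 0.0534 to 0.0578 in the others. That the steps mark the same read count in each library was not checked. Whether depth has a part in these values was not tested.

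Ratios within a library show which genes kept step with each other. The plain value of Myl4 was 0.607, 0.637 and 0.645 of that of Myl7 in saline and 0.891, 0.832 and 0.700 in LPS, and that of Tnni3 was 0.433, 0.406 and 0.439 in saline and 0.498 and 0.416 in LPS 1 and 2. These ratios moved far less than the levels, but every LPS ratio of Myl4 lay above every saline ratio. Nppa stood at 0.957, 0.272 and 0.338 of Myl7 in saline and at 0.0121, 0.0324 and 0.106 in LPS, and Pln at 0.0630, 0.0558 and 0.0532 in saline and at 0.0234, 0.0113 and 0.00826 in LPS. For both, every LPS ratio lay below every saline ratio. Hspb7 went the other way, at 0.0339 to 0.0603 of Myl7 in saline and 0.174 to 0.229 in LPS, as did Tnnc1, at 0.218 to 0.244 and at 0.576 and 0.457 in LPS 1 and 2. The ratios were chosen after the values were seen and are given with no test.

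**Figure D3:**
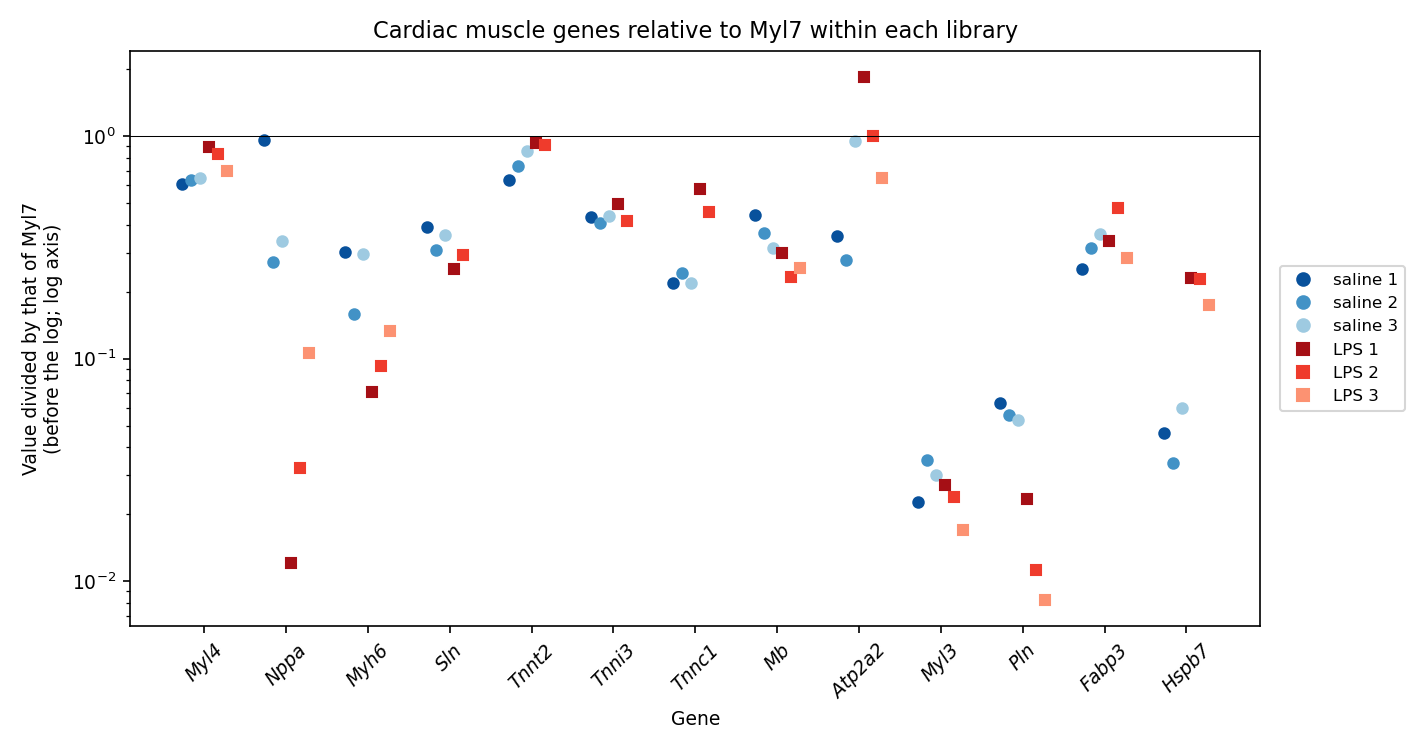
Plain value of 13 heart muscle genes divided by that of Myl7 in the same library (y axis, log scale), by gene (x axis); each point is 1 library, circles saline and squares LPS. Nppa, Myh6, Pln, Sln and Mb have lower ratios in the LPS libraries than in the saline ones, and Tnnc1, Hspb7, Myl4 and Tnnt2 higher ones. Myl4 and Tnni3 stay within 0.406 to 0.891.

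Other genes of cardiac muscle formed a list of 87 outside the set. Of the 47 tested, 32 fell, 1 rose and 14 did not pass, with a median of -1.03, against 24.3% called lower and a median of 0.02 over all genes tested. Cox6a2 and Cox7a1, muscle forms of cytochrome oxidase subunits, had differences of -1.76 and -1.43 (limma adjusted p = 0.0110 and 0.0344), and Nebl, the cardiac nebulette, one of -1.84. Fkbp1b, which binds the ryanodine receptor, was the gene that rose (1.09, limma adjusted p = 0.000376; chosen after its values were seen). Of 14 atrial markers outside the set, 8 were tested and 4 fell, among them Mybphl (4.74, 3.48 and 2.05 in saline, 0.52 to 1.44 in LPS) and Gja5, the atrial and arterial connexin (4.17 to 4.45 in saline, 1.94 to 2.75 in LPS). The saline values of Gja5 lay close together, and those of Mybphl did not. The other 4 tested atrial markers, Stard10 (-0.21), Nr2f1 (-0.43), Nr2f2 (-0.04) and Clu (0.01), did not pass. Of 6 ventricular markers outside the set, 4 were tested and fell. Lbh was at 6.59 to 6.76 in saline and 4.17 to 4.90 in LPS, and its saline values did not follow those of Myl7. Irx4, which defines the ventricle, was at 0 in every library. Bmp10, an atrial marker, was also at 0 in every library. The atrial and ventricular lists share genes with the list of 87.

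Markers of other tissues were read beside the set, for cells that a lung piece can hold. The counts below stand beside 24.3% of all genes tested that were called lower in LPS. Skeletal muscle markers were mostly near 0: 17 of 23 stayed under a plain value of 1 in every library, the fast myosin gene Myh4 was at most 0.01, and of the 4 tested Myl1 (-1.84) and Tnnt3 (-1.50) fell. The other tested markers, Tnni2 (0.007) and Mylpf (0.036), did not pass. The summed plain value of 19 skeletal muscle markers was 7.38 to 30.01 in saline and 3.75 to 6.68 in LPS. Most of that sum was Myl1 in saline 1 and saline 2. Myog, which defines the lineage, was at 0 in every library. Adipocyte markers moved with the set, with 8 of 9 tested lower and a median of -2.56. Their summed plain value over 11 genes was 77.6 to 196 in saline and 4.80 to 18.4 in LPS, where the 27 heart muscle genes with 6 values summed to 2870, 1033 and 401 in saline 1 to 3 and 109 to 260 in LPS. Cfd, which encodes the adipocyte protease adipsin, was 5.03 to 6.10 in saline and 0, 0 and 2.95 in LPS 1 to 3. Car3, a carbonic anhydrase of fat and muscle, was 4.25 to 6.08 in saline and 0.09 to 0.96 in LPS. Ucp1, the uncoupling protein of brown fat, was 2.31 in saline 1 and under 0.01 in every other library with a value (chosen after its values were seen). Smooth muscle markers fell in 9 of 12, with a median of -1.02 and sums of 384 to 654 in saline and 166 to 344 in LPS. Among them Myh11, the smooth muscle myosin, had a difference of -1.61. The sums of the adipocyte and smooth muscle markers put all 6 libraries in the same order as those of the heart muscle genes, and the sums of the skeletal muscle markers had the same order within saline. The part of these tissues in the result was not tested.

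**Figure D4:**
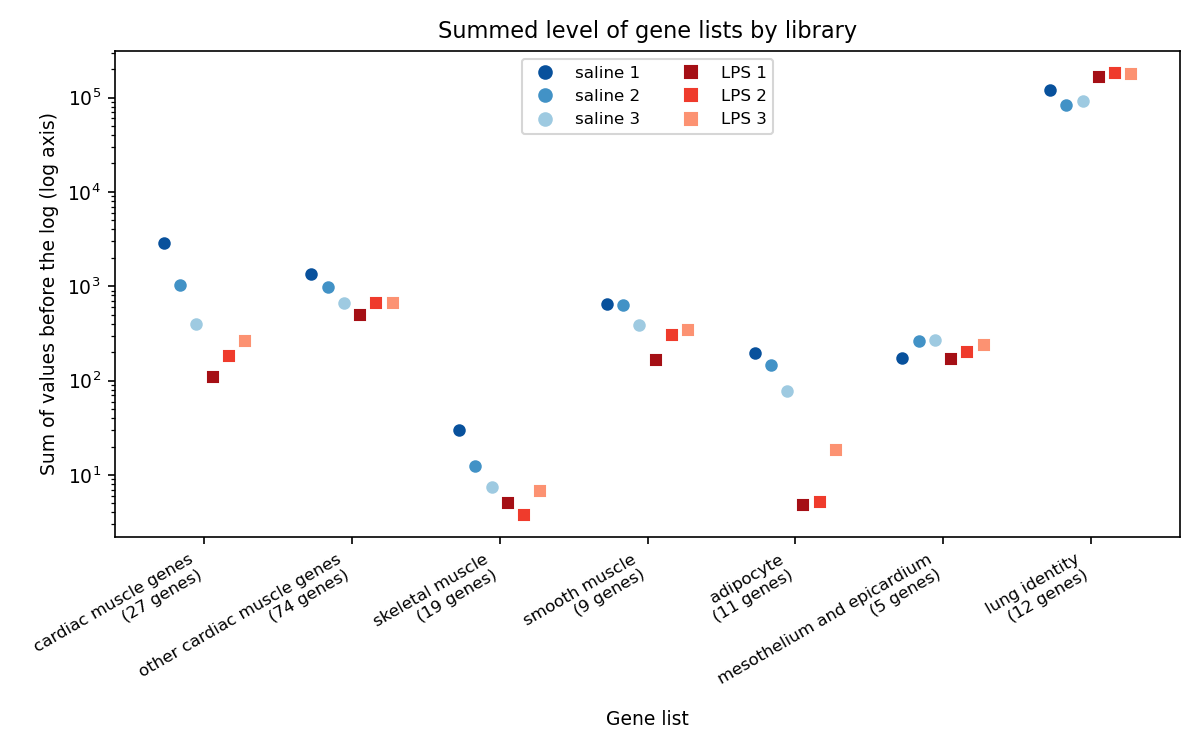
Sum of plain values over the genes with 6 values in each list (y axis, log scale), by list (x axis); each point is 1 library, circles saline and squares LPS. The heart muscle genes span 401 to 2870 in saline and 109 to 260 in LPS, adipocyte markers 77.6 to 196 and 4.80 to 18.4, and lung identity genes, whose sum is mostly Scgb1a1, lie far above both in every library.

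The tissue label was met by level. Over the libraries, Sftpc was 13.46 to 14.00 and Scgb1a1 15.90 to 17.32. Of the 12 lung identity genes 2 rose (Sftpd and Foxj1), 2 fell (Sftpb and Cyp2f2) and 8 did not pass, against 50.1% of all genes called in either direction. Most of their summed plain value was Scgb1a1, and the other 11 genes summed to 21535 to 23089 in saline and 16780 to 18463 in LPS. Mesothelial and epicardial markers fell in 5 of 7 tested, Tcf21 (-1.67) and Gpm6a (-1.12) among them, against 24.3% of all genes called lower. The other 2 tested, the mesothelial marker Msln (-0.02) and Krt19 (-0.04), did not pass. Most of the sum of the mesothelial and epicardial markers was Krt19, also a gene of airway epithelium. The other 4 genes with 6 values summed to 63.6 to 81.8 in saline and 32.8 to 51.4 in LPS. Erythroid markers rose in 5 of 10 tested, Hbb-b1 (1.20) and Hba-a1 (1.26) among them, against 25.7% of all genes called higher. Of the 36 heart muscle genes, 9 overlap another protein-coding gene in GENCODE M21, among them Tnnc1 with Nisch, Tnni3 with Dnaaf3, Mb with Apol6, Pln with Cep85l and Fabp3 with Zcchc17. The library kit was directional, but the sources used here do not say whether counting used the strand, so reads of such pairs may be mixed.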

How the data were processed

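RNA from mouse lung was sequenced in 3 saline and 3 LPS libraries. Trizol RNA went into a directional library kit, per the labels' protocols. Reads were aligned with TopHat to mm10, per the submitters' processing notes. The sources used here do not name the counting tool, the annotation or the scaling. The authors deposited 1 value per gene symbol and library on a log2 scale, a unit read from the values. No counts were analysed, so depth could be gauged only in relative terms, from steps in low values. LPS 3 has no value for 4484 genes, and 0 values of 1 or above were identical in any pair of libraries.

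Genes that reached a value of 1 before the log in at least 3 libraries (13116) entered a limma fit with a variance trend on the deposited values (limma 3.58.1, R 4.3.3). P-values were Benjamini-Hochberg adjusted over all genes tested, with a threshold of 0.05. A gene without a value in LPS 3 was fitted on 5 libraries. SEs and p-values are moderated, with each gene's variance drawn toward the trend over all genes tested. The fit was tested on simulated data. Fold changes of low genes are understated by the 1 added before the log. Libraries were grouped by title. The set of 36 genes and the lists (other cardiac muscle, atrial, ventricular, skeletal muscle, smooth muscle, adipocyte, mesothelial, erythroid and lung identity genes) were chosen with earlier results of these data known. All 36 genes are named. From the other lists, called genes are named among the 4 of the highest mean, beside defining markers near 0 and genes said to be chosen after their values were seen. Alternatives changed the filter, pseudocount, scaling, variance model, threshold, replicate block and libraries used. Positions are from GENCODE M21 (GRCm38, mm10).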

Additional observations from a re-analysis of the deposited data

How the results depend on the processing

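Of the 25 genes called lower, 10 kept the call under every alternative run for them: Myh6, Myl3, Csrp3, Tcap, Atp2a2, Pln, Hrc, Nppa, Ckmt2 and Fabp3. The count was 15 with no filter on low values and 10 with robust variance estimation; the cause was not tested. It was 25 with equal sums, with a pseudocount of 0.1 and with no variance trend, 22 with quantile normalization, 21 of 22 with a mean value of at least 5, and 20 without saline 2 and LPS 3 together. With each library left out in turn there were 22 to 25 genes called lower, 0 higher, median differences of -3.09 to -1.78, and 4901 to 7096 genes called in all. Hspb7 then ranged from -1.01 to 0.12, the positive value being that without saline 1. At an adjusted p of 0.01, 4037 genes were called, as the stricter threshold itself requires. With the replicate number as a block, 24 of 26 genes were called lower (Actc1 was lost) and 5417 genes in all. Deviations from the group means of same-numbered libraries correlated at -0.23, -0.08 and -0.25 over 10295 genes. These values gave no sign of pairing by number, but with so few libraries they cannot exclude it. Without counts, the precision of genes near 0, such as Nkx2-5, is unknown.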
